A study of Mus musculus with 2 samples.

Results

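Intergenic open regions just upstream of protein-coding genes were examined in T-helper 1 (Th1) primary cells of C57BL/6NJ mice. A region was counted when it was found in both replicates by at least 1 bp of overlap, lay wholly outside every annotated gene, stood over 1 kb from any transcript start, and had its centre 1 to 10 kb upstream of the nearest start of a protein-coding gene. These criteria selected 4194 of 84380 shared regions, or 4.97%. No threshold on signal, width or sequence was set. The choice still bears on width and signal, because wide regions near a start reach into the excluded 1 kb and weak regions are less often found in both lists, as described below. The study profiled 1 group, 2 biological replicates of Th1 cells that carry separate biosample labels under 1 donor identifier, by ATAC-seq, in which a transposase cuts accessible DNA. Sex and age are not given in the labels, and no second condition exists to compare with. Whether the replicates came from separate animals is not stated, so the spread between them may be technical. The names of the regions also carry the word ASTARR, the word insert and a time in hours, whose meaning the sources used here do not state. The assay is named as the labels name it, and the signal could also be that of fragments put into a reporter library, which these files do not settle.

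Open chromatin upstream of a gene often holds enhancers, stretches of DNA where transcription factors bind and act on a promoter at a distance. Th1 cells are CD4+ helper T cells that secrete interferon gamma and are specified by the T-box factor T-bet, encoded by Tbx21, together with STAT4 and RUNX3. AP-1 factors, which pair with interferon regulatory factors in activated T cells, ETS factors and RUNX factors are known to occupy distal open chromatin in T cells. CTCF is an insulator protein that marks chromatin loop anchors. Assigning a region to the nearest start names a neighbour and does not show which gene the region acts on.

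Sequence around the summit is shown for 7 upstream regions on which the descriptions below turn. They are the Th1 genes Ifng, Cxcr3, Il12rb2 and Fasl, the lectin-like receptor gene Klrc1, the mast cell protease gene Mcpt9 with the second strongest upstream region, and Cd2, 1 of the genes with the most upstream regions. Each window runs from 100 bases before to 100 bases after the summit of replicate 1, on the plus strand of GRCm38.p6 (mm10), and was read from the RefSeq genome. The windows lie at chr10:118435534-118435734 (Ifng), chrX:101737335-101737535 (Cxcr3), chr6:67383257-67383457 (Il12rb2), chr1:161794613-161794813 (Fasl), chr6:129680499-129680699 (Klrc1), chr14:56034513-56034713 (Mcpt9) and chr3:101293803-101294003 (Cd2). All 7 are intergenic, outside every annotated gene, exon, intron and UTR. Capitals mark matches on either strand to the letters given below for ETS, RUNX, AP-1, T-box, IRF, STAT, CTCF and NF-kB.
Ifng: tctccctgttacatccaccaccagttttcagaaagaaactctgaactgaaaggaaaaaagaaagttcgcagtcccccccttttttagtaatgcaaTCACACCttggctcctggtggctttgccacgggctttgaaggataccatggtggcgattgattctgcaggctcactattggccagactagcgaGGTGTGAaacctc
Cxcr3: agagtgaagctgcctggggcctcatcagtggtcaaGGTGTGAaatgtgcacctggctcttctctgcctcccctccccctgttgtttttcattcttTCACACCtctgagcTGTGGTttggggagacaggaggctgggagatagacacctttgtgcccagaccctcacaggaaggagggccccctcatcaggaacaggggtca
Il12rb2: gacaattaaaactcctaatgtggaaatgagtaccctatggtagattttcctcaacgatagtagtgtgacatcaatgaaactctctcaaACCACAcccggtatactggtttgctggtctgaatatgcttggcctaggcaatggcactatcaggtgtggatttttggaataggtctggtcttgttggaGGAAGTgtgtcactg
Fasl: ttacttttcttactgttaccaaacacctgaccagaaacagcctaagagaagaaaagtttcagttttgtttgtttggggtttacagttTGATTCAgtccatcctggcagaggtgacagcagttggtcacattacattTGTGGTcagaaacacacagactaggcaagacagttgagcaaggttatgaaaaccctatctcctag
Klrc1: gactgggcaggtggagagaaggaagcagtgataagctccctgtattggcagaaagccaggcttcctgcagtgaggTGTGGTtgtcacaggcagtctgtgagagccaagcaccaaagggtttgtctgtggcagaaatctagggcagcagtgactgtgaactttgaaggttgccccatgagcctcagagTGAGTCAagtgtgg
Mcpt9: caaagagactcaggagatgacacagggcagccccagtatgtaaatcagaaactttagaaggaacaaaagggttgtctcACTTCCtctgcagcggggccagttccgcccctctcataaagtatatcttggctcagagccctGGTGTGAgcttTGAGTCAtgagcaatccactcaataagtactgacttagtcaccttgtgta
Cd2: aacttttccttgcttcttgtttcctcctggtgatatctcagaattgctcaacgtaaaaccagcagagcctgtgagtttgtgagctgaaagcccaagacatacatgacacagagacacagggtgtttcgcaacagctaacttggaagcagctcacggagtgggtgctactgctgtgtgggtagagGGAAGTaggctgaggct
The Ifng window holds T-box letters at bases 96 to 102 and 189 to 195, counted from the first base of the window, whose middle base is the summit. The Cxcr3 window holds T-box letters at bases 36 to 42 and 96 to 102 and a RUNX match at bases 110 to 115. The Fasl and Klrc1 windows each hold 1 AP-1 and 1 RUNX match, and Il12rb2 holds 1 RUNX and 1 ETS match. In the Mcpt9 window ETS, T-box and AP-1 letters occur within bases 79 to 158. Cd2 holds 1 ETS match.

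Upstream regions were weaker in the median than shared regions at large. Their median signal, the enrichment of a region as given in the authors' lists, was 5.77 in replicate 1 and 5.66 in replicate 2. The medians of all shared regions were 6.92 and 6.72. When all shared regions were split into 10 groups by signal, the weakest group held 598 upstream regions and the strongest 235. The quartiles of upstream regions were 3.91 and 8.71 in replicate 1 and 3.85 and 8.45 in replicate 2, and the values ranged from 1.42 to 23.4 and from 1.46 to 22.9. The lists hold no read counts, so the depth behind each value is unknown. The joined upstream regions were 631 bp wide in the median, with quartiles of 455 and 859 bp and a range of 209 to 3294 bp. Stronger regions were wider, with a Spearman correlation between signal and width of 0.476 in replicate 1 and 0.477 in replicate 2. That correlation and those below run over the 4194 regions, which share the same libraries, and are given as descriptions.

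Signal was close in the replicates, with a Spearman correlation of 0.954 over the 4194 regions. Of them, 97.6% agreed to within 1.5-fold and 100 (2.38%) differed by more, beside 2.18% of all shared regions that differed by more than 1.5-fold. The share among upstream regions was near that background. Signal was higher in replicate 1 at 57.3% of the regions, beside 58.1% of all shared regions. Summits of the replicates lay 11 bp apart in the median, and 91.1% lay within 100 bp.

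Upstream regions with a ratio over 2-fold numbered 3 of 4194, beside 56 of all 84380 shared regions. The largest ratio, 2.41, was at a region 5083 bp upstream of Emc7, a subunit of the ER membrane protein complex, with a signal of 6.98 in replicate 1 and 2.90 in replicate 2. Upstream of Ercc6l2, a DNA repair helicase gene, the values were 6.45 and 2.87. The region near Anxa10, an annexin gene, went the other way, with 3.46 in replicate 1 and 7.22 in replicate 2.

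**Figure D1:**
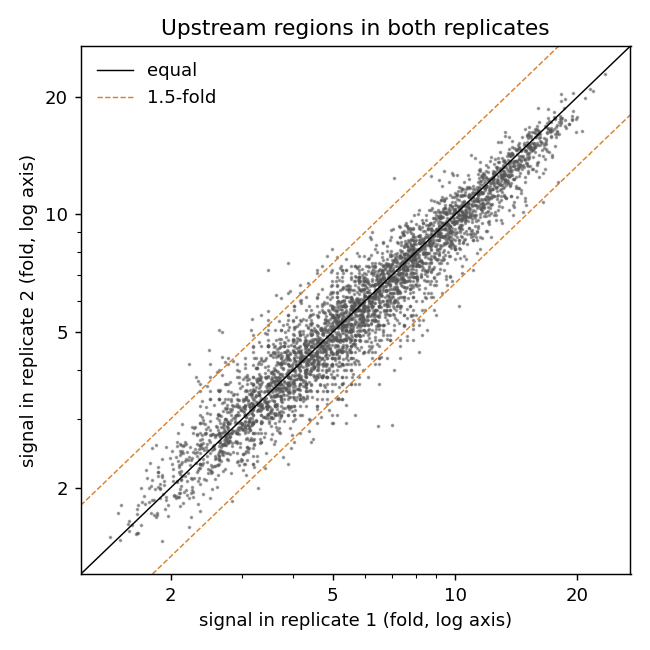
Signal of each of the 4194 upstream regions in replicate 1 (x axis) and replicate 2 (y axis), as fold enrichment on log axes, 1 point per region. The solid line marks equal values and the dashed lines a 1.5-fold ratio, beyond which 100 regions lie.

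Positions that met the same rule in a single list were mostly found again in the other. In the list of replicate 1, 85.4% of 5016 such regions overlapped a region of replicate 2, and in the list of replicate 2, 92.4% of 4573 overlapped a region of replicate 1. Over all regions of the lists these shares were 86.6% and 93.0%. Upstream regions seen in 1 list alone were weak and narrow. Their median signal was 3.02 over 730 regions in replicate 1 and 2.76 over 346 regions in replicate 2, and their median widths were 256 and 296 bp. Among all regions seen in 1 list alone the median signals were 3.05 and 2.99 and the widths 264 and 287 bp. Weakness and narrowness of regions seen once were thus not particular to upstream regions.

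Signal in upstream regions lay between that of open regions inside genes and that of distant intergenic regions. Regions inside genes 1 to 10 kb downstream of the nearest coding start (n = 5544) had medians of 5.19 in replicate 1 and 5.08 in replicate 2, below the upstream regions in both. Intergenic regions over 10 kb from any coding start (n = 19172) had medians of 6.92 and 6.63, above them in both. Promoter regions, those within 1 kb of a transcript start (n = 21538), had medians of 9.05 and 8.84 and were 1145 bp wide in the median. Each of these differences between classes was larger than the difference between replicates. Widths of the other classes, 637 bp inside genes and 669 bp in distant intergenic sequence, were near the 631 bp of the upstream regions. With 2 replicates and 1 group an exact permutation test cannot go below p = 0.5, so these comparisons rest on the medians in each replicate.

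The flank past the 3' end of coding genes gives a second intergenic setting at the same distances. Regions 1 to 10 kb past a coding 3' end (n = 4741) had medians of 5.99 in replicate 1 and 5.84 in replicate 2 and a width of 686 bp. Of the upstream regions, 907 (21.6%) also lay there, so these classes share members. Without the shared members, the 3834 regions past a 3' end had medians of 6.15 and 6.03. Per Mb of sequence that could hold such a region, the 3' flank had 49.1 regions, the upstream flank 38.6 and distant intergenic sequence 15.2. Asking that only the centre of the region meet the position rule gave 50.2, 40.99 and 15.5, in the same order.

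**Figure D2:**
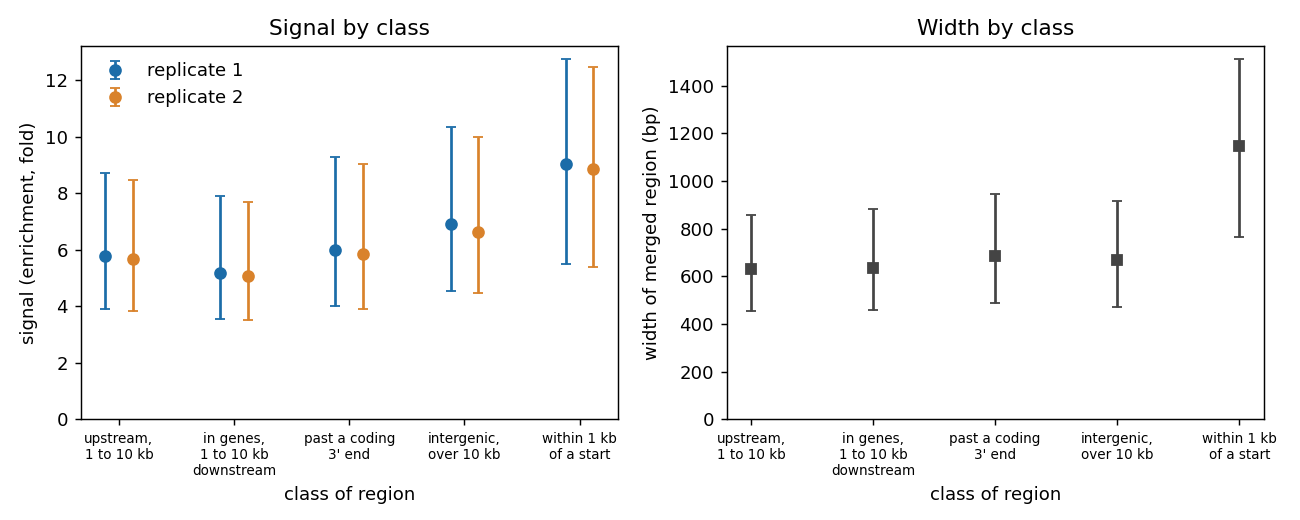
Median signal in each replicate (left, fold enrichment) and median width of the joined region (right, bp) for 5 classes of shared regions, with bars from the lower to the upper quartile. Upstream regions sit above regions inside genes and below distant intergenic and promoter regions in both replicates.

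Both number and strength changed with distance from the start. The median distance was 5644 bp, with quartiles of 3391 and 7625 bp. Per Mb of eligible sequence there were 24.9 upstream regions at 1 to 2 kb, 35.5 at 2 to 3 kb, 46.0 at 5 to 6 kb, 46.8 at 6 to 7 kb and 41.3 at 9 to 10 kb. The lowest of these values is set in part by the rule, because a region centred near 1 kb must also lie wholly beyond 1 kb. With the centre alone held to the rule, the 4 steps from 1 to 5 kb had 36.4, 36.3, 36.5 and 34.6 regions per Mb, and the 4 steps from 5 to 9 kb had 45.1 to 47.8.

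Median signal was 4.48 in replicate 1 and 4.33 in replicate 2 at 1 to 2 kb, 5.13 and 5.16 at 4 to 5 kb, 6.92 and 6.53 at 6 to 7 kb, and 6.40 and 6.37 at 9 to 10 kb. The rise between the nearest and the later steps was larger than the difference between replicates in any step. Part of the low value at 1 to 2 kb comes with the rule, which leaves out wider and stronger regions there. With the centre alone held to the rule the medians were 4.89 and 4.76 at 1 to 2 kb and 6.80 and 6.48 at 6 to 7 kb. Across regions the Spearman correlation of distance with signal was 0.243 in replicate 1 and 0.231 in replicate 2, and 0.218 and 0.209 over the 4451 regions of the centre rule. The authors' −log10 q, their measure of confidence, did not follow the same course. Its medians were 27.1 and 23.9 at 1 to 2 kb, 39.8 and 33.7 at 3 to 4 kb, 36.5 and 31.3 at 6 to 7 kb, and 33.8 and 30.0 at 9 to 10 kb. Enrichment and confidence therefore ranked the distance steps differently. The background that the enrichment is relative to is not stated, and its part in this difference was not tested.

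At the limits of the rule the values ran on without a step at 10 kb. The 449 intergenic regions centred 10 to 11 kb upstream had medians of 6.65 and 6.57, and the 408 members at 9 to 10 kb had 6.40 and 6.37. At the near limit, 354 members whose edge lay 1 to 1.5 kb from a start had medians of 4.85 and 4.74 and a width of 571 bp. The 191 regions left out because their edge lay 0.5 to 1 kb from a start had 6.23 and 5.84 and a width of 740 bp. The members nearest the limits were a region whose edge lay just over 1 kb from a start near Rnase13 (10.7 and 8.42), one centred 1151 bp from Zfp609 (1.79 and 1.72), and regions centred 9999 bp from Mob2 (14.4 and 11.7) and 10000 bp from Cops8 (8.88 and 8.85).

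**Figure D3:**
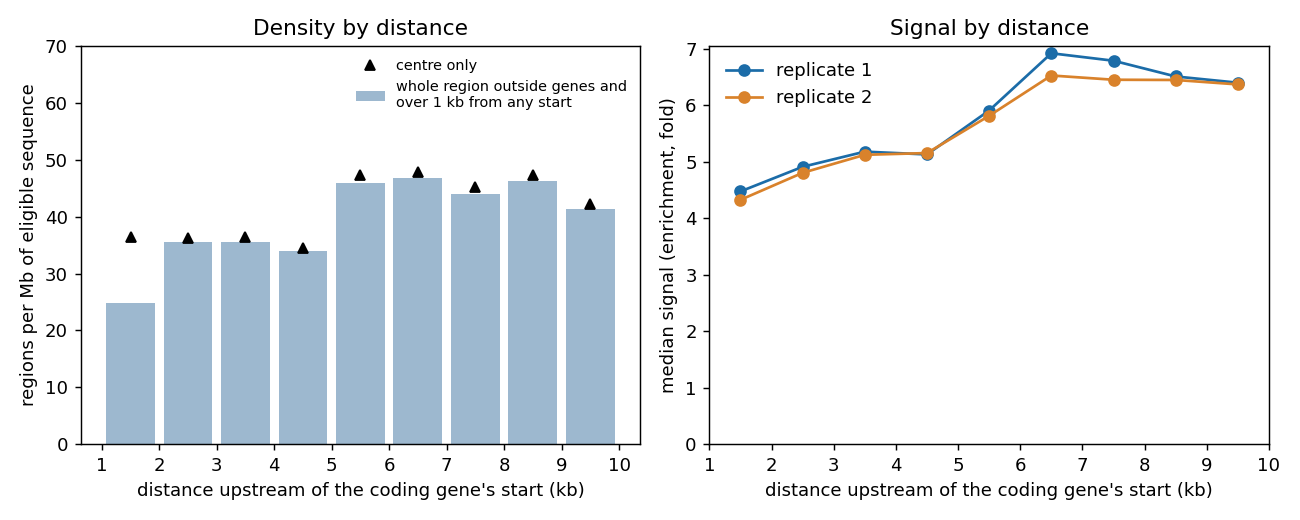
Upstream regions per Mb of eligible sequence (left; bars, whole region held to the rule; triangles, centre alone) and median signal in each replicate (right, fold enrichment) against distance upstream of the start, in steps of 1 kb. Density and signal are both higher beyond 5 kb than nearer the start.

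In base composition upstream regions did not resemble promoters. The median GC content of the window of 100 bp on each side of the summit was 48.8%, beside 59.2% in promoter regions and 47.8% in distant intergenic regions. The median ratio of observed to expected CpG was 0.204, beside 0.620 in promoter regions and 0.200 in distant intergenic regions. Repeat-masked bases, those in lower case in the genome sequence, made up 10.4% of the window in the median, and in 7.75% of upstream regions they made up over 50% of it. These 2 values were 4.98% and 4.47% in all shared regions and 0% and 1.87% in promoter regions. They were 9.45% and 5.49% in distant intergenic regions and 9.95% and 8.08% in regions past a coding 3' end. GC content had a Spearman correlation with signal of only 0.0570 in replicate 1 and 0.0441 in replicate 2.

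The same windows were searched on both strands for 15 short motifs. AP-1 letters (TGANTCA) were in 27.9% of upstream regions, beside 26.0% of all shared regions, 31.2% of distant intergenic and 12.1% of promoter regions. RUNX letters (TGTGGT) were in 24.0% of upstream regions and 22.8% of all shared regions, and ETS letters (GGAAGT) in 20.2% and 19.9%. CTCF letters (CNAGGNGGC) were in 7.61% and 6.69%. Of the motifs typical of CpG-rich promoters, KLF/SP letters (GGGCGGG) were in 3.91% of upstream regions, 8.76% of all shared and 26.3% of promoter regions, and NRF1 letters (GCGCNTGCG) in 0.572%, 1.82% and 6.15%. Shares of the first 4 motifs were within 2 percentage points of those in all shared regions, and those of the promoter motifs were lower. A match describes letters, not binding.

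The shares of the other motifs are given beside those in all shared regions. They were IRF (GAAANNGAA) at 8.23% beside 8.64%, STAT (TTCNNNGAA) at 8.27% beside 7.99%, NF-kB (GGGNNTTCC) at 4.55% beside 4.45%, and T-box (GGTGTGA) at 4.77% beside 4.62%. NFY letters (CCAAT) were in 20.6% beside 21.2%, cAMP response element letters (TGACGTCA), which were in 1.72% of promoter regions, in 0.429% beside 0.725%, and TCF/LEF letters (CTTTGAA) in 5.17% beside 4.62%. GATA letters (AGATAA) were in 7.49% beside 6.91% and E-box letters (CACCTG) in 16.5% beside 15.1%. ETS and STAT letters share bases where they overlap, and each was then counted.

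Strong and weak upstream regions differed in AP-1 and CTCF letters. When the 4194 regions were ranked by mean signal and split into 10 groups of equal size, AP-1 letters were in 17.9% of the weakest group and 41.8% of the strongest, and CTCF letters in 2.38% and 10.5%. RUNX letters moved less, from 21.9% to 25.3%, and ETS letters were at 19.3% and 20.3%. Between the same groups the median width went from 432 to 840 bp and the median distance from 3803 to 6853 bp. CTCF letters and width took a similar course when all shared regions were split into 10 groups by signal. There CTCF letters were in 4.23% of the weakest group and 8.13% of the strongest, and median width went from 460 to 984 bp. Their rise with signal was thus not particular to upstream regions, and AP-1 letters were not compared in this way. Upstream regions with AP-1 letters (n = 1169) had medians of 6.42 in replicate 1 and 6.21 in replicate 2, and those without had 5.54 and 5.39. Regions with CTCF letters (n = 319) had 6.88 and 6.60, and those without had 5.68 and 5.54. For T-box letters (n = 200) the medians were 5.79 and 5.68 with the motif and 5.76 and 5.65 without.

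**Figure D4:**
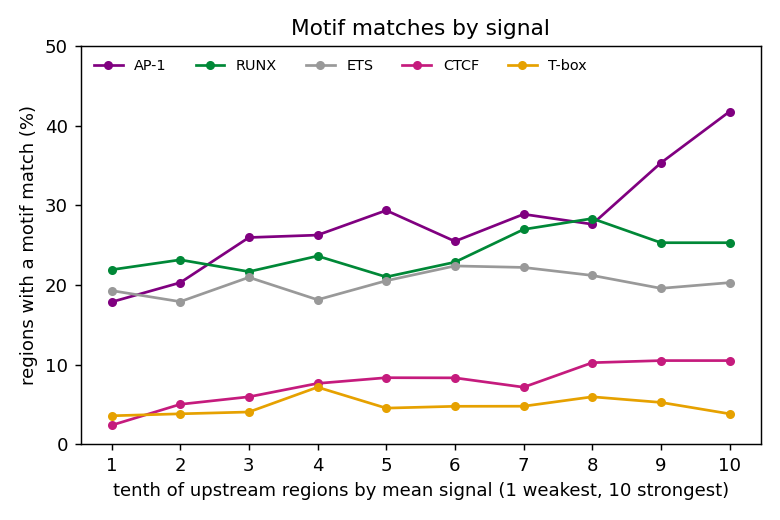
Percent of upstream regions whose window of 100 bp on each side of the summit holds AP-1, RUNX, ETS, CTCF or T-box letters, in 10 groups of equal size ordered by mean signal. AP-1 runs from 17.9% to 41.8% and CTCF from 2.38% to 10.5%, while T-box stays between 3.57% and 7.16%.

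A pair of T-box matches in 1 window was rare. It occurred in 7 of 4194 upstream regions (0.167%) and in 114 of 84380 shared regions (0.135%). The 7 regions lay upstream of Ifng, Cxcr3, Rdh12, Itpripl2, Adh6b, Asxl1 and Krt16. Those of Ifng and Cxcr3, both genes of the Th1 programme, had the highest signals of the 7. Pairs were counted after the Ifng and Cxcr3 sequences had been seen.

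Upstream regions were spread over many genes. At least 1 was assigned to 3463 of 21938 protein-coding genes, or 15.8%, and to 21.2% of the 16350 genes that have any eligible upstream sequence. Of these, 2809 genes had 1 region, 583 had 2, 65 had 3 and 6 had 4. Neighbouring upstream regions of the same gene lay 1907 bp apart in the median.

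The 6 genes with 4 regions were Tmigd1, Trim5, Fxyd3, Cd2, S100a10 and Sash3. Cd2, an adhesion and co-stimulatory receptor of T cells, had regions at 2356, 5831, 7919 and 9449 bp. Their signals were 2.31, 4.70, 4.95 and 3.93 in replicate 1 and 2.31, 4.95, 4.46 and 3.83 in replicate 2, and the promoter of Cd2 had 2.95 and 3.60. The 3 regions beyond 5 kb were thus each above the promoter in both replicates. Sash3, an adaptor of lymphocyte signalling on the X chromosome, had regions at 2568, 4802, 6424 and 8369 bp. Their signals were 3.41, 5.19, 2.40 and 2.61 in replicate 1 and 3.30, 4.95, 2.31 and 2.74 in replicate 2, and its promoter had 5.38 and 4.78. S100a10, an annexin partner, had 4 weak regions between 1.80 and 4.74 in either replicate.

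Tmigd1, a cell adhesion gene, and Trim5, a restriction factor gene, had 4 regions each and no open promoter, that is no shared region within 1 kb of a start. Their upstream signals lay between 4.25 and 6.59 and between 4.17 and 6.85 in replicate 1. Fxyd3, a regulator of the sodium pump, had values of 2.88 to 7.13 in replicate 1. Klrc1 led the genes with 3 regions by summed signal. Its regions lay at 1577, 8421 and 9853 bp, with 15.7, 8.86 and 3.10 in replicate 1 and 14.8, 8.91 and 2.77 in replicate 2, and it had no open promoter. Prss56, a serine protease gene, reached 13.3 and 13.6 at 2263 bp. Ntpcr, a nucleotide phosphatase gene, reached 14.3 and 13.1 at 2327 bp, and Gpm6b, a membrane glycoprotein gene, reached 10.5 and 10.03 at 9041 bp.

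The strongest upstream region lay 5577 bp from Cd209a, a lectin gene of dendritic cells, at chr8:3754404-3754718. It was 315 bp wide, below the lower quartile, with a signal of 23.4 in replicate 1 and 22.9 in replicate 2. Over 271 bp it was 88.6% identical to CT010467.1, an annotated ribosomal RNA gene on chromosome 17. It was 1 of 4194 upstream regions, and the single one, to match CT010467.1, Gm26917 (annotated at the same locus) or mitochondrial DNA over at least 100 bp at 80% identity or more. The lists hold no reads, so the part of ribosomal RNA gene copies in the signal near Cd209a was not tested.

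After it came regions near Mcpt9 (21.8 and 20.7), Gm7029 (21.5 and 20.9), Wnt8b, a Wnt ligand gene (20.8 and 19.9), and Zmiz2, a transcriptional co-activator gene (19.5 and 20.4). The rest of the 10 strongest were near 4932438A13Rik (18.2 and 20.4), Gip, a gut hormone gene (18.6 and 19.7), Smarca4, the ATPase of the BAF remodelling complex (19.5 and 18.4), Il33 (19.999 and 17.8) and Bloc1s6, a subunit of a lysosome biogenesis complex (18.2 and 19.5). Of the 10, 7 windows held AP-1 letters, beside 41.8% in the strongest signal group and 27.9% of all upstream regions. AP-1 letters were more frequent where signal was higher, and these 10 were chosen by signal. Only 5 of the 10 genes had an open promoter, beside 83.4% of all genes with an upstream region. Promoter signals of those 5 genes were lower than the upstream signal in both replicates, as at Smarca4 with 13.3 and 14.1 and at Wnt8b with 5.27 and 5.79. The genes were chosen by their upstream signal, so this order follows largely from the choice. The widest regions, at 3294 bp near Hcn2, 3197 bp near Gm10382, 2831 bp near Rnf19b, 2760 bp near Colec11 and 2737 bp near Cd79a, were of ordinary strength, with signals of 4.51 to 6.42.

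Genes of the Th1 programme had upstream regions more often than coding genes at large: 18 of 32 did (56.3%), beside 15.8% of coding genes. Of the 27 Th1 genes with eligible sequence 66.7% did, beside 21.2% of such genes. Most lists of immune genes, and the housekeeping list at 9 of 27 (33.3%), were also above these shares, so the count is not particular to the Th1 list. The median signal of its 22 regions, 4.69 in replicate 1 and 4.50 in replicate 2, was below that of all upstream regions.

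At 17 Th1 genes the strongest upstream region could be set beside an open promoter. It was above the promoter in both replicates at 7 of them and below it in both at 10. The 7 genes above were also those with the strongest upstream regions of the 17, and a strong upstream value itself makes this order more likely. Ifng, the defining cytokine, had a region at chr10:118435096-118435967, 5514 bp upstream, with 13.1 in replicate 1 and 12.6 in replicate 2, and its promoter had 7.25 and 6.55. Il12rb2, the inducible chain of the interleukin 12 receptor, had 12.2 and 11.5 at 7313 bp and a promoter of 6.58 and 6.25. Cxcr3, the chemokine receptor that guides Th1 cells to inflamed tissue, had 10.3 and 10.4 at 3276 bp and a promoter of 3.57 and 3.03. Upstream and promoter values did not overlap at these 3 genes, nor at Fasl, Lta and Ccl5 described next, so this does not set the 3 genes apart. Replicates of an upstream region differed by only 1.09-fold in the median, and such non-overlap was not counted over all genes. Fasl, the death ligand of killer and Th1 cells, had 14.9 and 14.5 at 6210 bp beside 9.67 and 9.54 at the promoter. Lta, the lymphotoxin gene, had 8.05 and 7.54 beside 6.02 and 6.48, and Ccl5, an inflammatory chemokine gene, had 7.25 and 7.06 beside 3.62 and 3.60.

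At the 10 remaining Th1 genes with an open promoter the upstream region was below the promoter in both replicates, as at most genes. Tbx21 had 4.33 and 4.42 at 4381 bp beside 5.48 and 5.65 at its promoter. Runx3 had 2.33 and 2.58 at 6013 bp beside 10.98 and 10.5. Hlx, a homeobox partner of T-bet, had 3.19 and 3.06 beside 11.2 and 10.7, and Id2, an inhibitor of E proteins, had 3.73 and 3.34 beside 8.97 and 9.35. Receptor genes Ifngr1 (6.34 and 6.65), Il12rb1 (3.05 and 3.18) and Ifngr2 (2.50 and 1.88) were also below their promoters, as were the chemokine gene Ccl4 (5.05 and 4.59), the perforin gene Prf1 (4.15 and 3.69) and Havcr2, an inhibitory receptor gene (2.26 and 2.00). Ly6c2 had 7.47 and 7.94 at 4353 bp and no open promoter. In all, the strongest upstream region was above the promoter in both replicates at 7 of the 17 Th1 genes with both, and below it in both at 10. Over all genes with both kinds of region these shares were 24.6% above and 69.2% below, and the difference was not tested.

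**Figure D5:**
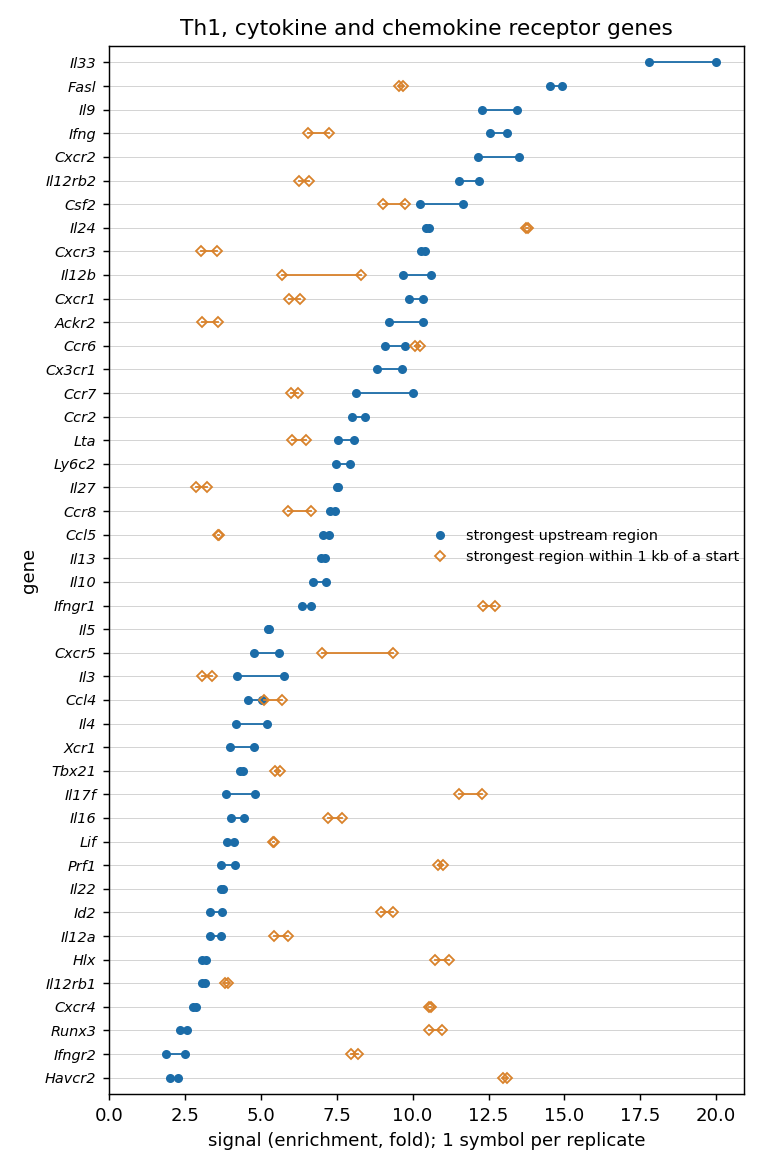
Signal of the strongest upstream region (filled circles) and of the strongest region within 1 kb of a start (open diamonds) for genes of the Th1, cytokine and chemokine receptor lists, in order of upstream signal, with 1 symbol per replicate joined by a line. Genes without diamonds, such as Il33 and Il9, had no shared region within 1 kb of a start.

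Chemokine receptor genes had the highest share of any list, 13 of 20 (65%), beside 15.8% of coding genes. The median of their 18 regions was 7.79 in replicate 1 and 7.64 in replicate 2. Receptors of myeloid and NK cells stood beside those of T cells. Cxcr2, the neutrophil receptor, had 13.5 and 12.2 at 4510 bp and no open promoter. Cx3cr1 (9.66 and 8.81), Ccr2 (8.42 and 8.01) and Xcr1 (4.00 and 4.78) had none either. Cxcr1 had 9.86 and 10.3 beside a promoter of 6.30 and 5.92. Ackr2, a scavenging receptor, had 10.4 and 9.22 beside 3.59 and 3.05. Ccr7, the lymph node homing receptor, had 8.12 and 10.004 beside 6.22 and 6.00, and Ccr8 had 7.45 and 7.28 beside 6.64 and 5.90. At Ccr6, Cxcr5 and Cxcr4 the upstream region was below the promoter, with 9.75 and 9.10, 4.78 and 5.58, and 2.75 and 2.85.

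Cytokine genes had upstream regions at 18 of 36 (50%), beside 15.8% of coding genes. At 7 of the 18 there was no open promoter, beside 16.6% of all genes with an upstream region. These included the Th2 cytokine genes Il4 (5.19 and 4.20), Il5 (5.26 and 5.22) and Il13 (7.10 and 6.98), and Il9 (13.4 and 12.3 at 5984 bp). The others were Il10 (7.15 and 6.72), Il22 (3.74 and 3.69) and the alarmin gene Il33. Of the 11 cytokine genes with both kinds of region, 6 had the upstream region above the promoter in both replicates, beside 24.6% over all such genes. Apart from Ifng and Lta these were Csf2, the GM-CSF gene (11.7 and 10.2 beside 9.04 and 9.75), Il12b (9.69 and 10.6 beside 8.31 and 5.68), Il27 (7.53 and 7.51 beside 2.86 and 3.24) and Il3 (5.77 and 4.21 beside 3.39 and 3.07). The promoter was higher at Il24 (10.4 and 10.5 upstream beside 13.8 and 13.7), Il17f (4.80 and 3.84 beside 11.5 and 12.3), Il16 (4.02 and 4.45 beside 7.20 and 7.67), Lif (3.90 and 4.10 beside 5.42 and 5.42) and Il12a (3.32 and 3.69 beside 5.44 and 5.90).

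Other T cell programmes had shares near that of the Th1 list and above the 15.8% of coding genes. In the Th2 list 12 of 19 genes had an upstream region, led by Il9, Il24 and Irf4, a regulator of effector T cells (10.7 and 9.93 at 9355 bp). The Th17 list had 8 of 17, led by Ccr6, Il6st and Il1r1. The regulatory T cell list had 9 of 20, led by Capg, an actin capping gene (15.1 and 16.0 at 5608 bp), Nrp1 and Ccr8. The follicular helper list had 8 of 16, led by Pou2af1, Il21r and Bcl6, whose region at 8884 bp had 5.75 and 5.91 beside a promoter of 2.79 and 2.74. Differences between lists were not tested, and several genes stand in more than 1 list.

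Activation genes had an upstream region at 15 of 26 (57.7%), beside 15.8% of coding genes. The median of their 25 regions, 5.16 in replicate 1 and 5.07 in replicate 2, was below that of all upstream regions. The strongest region was above the promoter in both replicates at 7 of the 15 genes and below it in both at 7. The 3 genes with the strongest regions follow. Egr2, an early growth response factor induced by the T cell receptor, had 16.8 and 16.7 at 5515 bp beside a promoter of 10.9 and 10.8. Cd69, an early activation marker, had 15.5 and 15.2 at 9295 bp beside 9.54 and 9.61. Nr4a1, another immediate early factor, had 13.5 and 13.8 at 7578 bp beside 10.5 and 9.45. At the other end, both regions of Junb, an AP-1 subunit gene, lay between 1.57 and 1.64. In the AP-1 and BATF list, 9 of 15 genes had an upstream region, but the median signal was 2.67 in replicate 1 and 2.43 in replicate 2. Bach2, Batf3 and Batf led that list, with Bach2 at 7.20 and 7.37.

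T cell identity genes had upstream regions at 9 of 28 (32.1%), beside 15.8% of coding genes. Cd3e, a chain of the T cell receptor complex, had 8.95 and 9.20 at 9484 bp beside a promoter of 9.06 and 9.71. Lck, the kinase that starts receptor signalling, had 7.94 and 8.02 beside 9.81 and 10.1. Cd4, the helper cell co-receptor, had 7.45 and 6.71 at 3758 bp beside a promoter of 2.29 and 2.33. Among naive and memory genes 8 of 15 had a region, led by Ccr7, Il7r (9.04 and 8.82) and Bach2. Inhibitory receptor genes had 4 of 10, led by Klrg1, Pdcd1 and Cd244a. Interferon response genes had 13 of 29, led by Gbp3, Oasl1 and Ifit3. The ETS, RUNX and interferon regulatory factor list had 9 of 28, led by Etv3, Irf4 and Irf5. STAT and SOCS genes had 3 of 15 (Stat3, Socs3 and Stat5b), and cell cycle genes 3 of 20 (Ccnb1, Mcm3 and Aurkb). These last shares, 20% and 15%, were near that of coding genes. Ywhaz (9.38 and 7.22) and Psmb4 (6.47 and 6.71) were among the strongest of the housekeeping list.

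Markers of other cell types were checked in the same way. All 28 T cell identity genes (100%) and 96.9% of Th1 genes had an open promoter, beside 61.1% of B cell, 43.5% of myeloid, 33.3% of NK cell and 6.67% of hepatocyte markers and 65.9% of all coding genes. The share was also 100% for housekeeping and cell cycle genes. It was 66.7% for CD8 and cytotoxic, 60% for stromal and endothelial and 45% for neuronal genes. Upstream regions occurred at 6 of 18 B cell (33.3%), 8 of 23 myeloid (34.8%), 7 of 15 NK cell (46.7%) and 5 of 15 CD8 and cytotoxic genes (33.3%). T cell identity genes, at 32.1%, did not stand above these lists, and all coding genes were at 15.8%. Of genes with eligible sequence the shares were 42.9% for T cell identity, 37.5% for B cell, 36.4% for myeloid and 53.8% for NK cell genes, beside 21.2%. Upstream regions occurred at 1 of 15 hepatocyte (6.67%), 2 of 20 neuronal (10%) and 4 of 20 stromal and endothelial genes (20%). Of the 8 myeloid genes 6 had an upstream region without an open promoter, among them Itgam (10.3 and 11.2), Cebpe (9.68 and 7.81), Fcgr1 (8.70 and 8.67) and Elane (9.11 and 7.86). In the NK list the strongest were at Klri2 (12.4 and 12.3), Klra7 (11.9 and 11.8) and Tyrobp (9.63 and 8.02). In the B cell list they were at Blnk (13.5 and 13.4), Cd22 (14.4 and 12.5) and Cd79a (5.89 and 6.42), and in the CD8 and cytotoxic list at Klrc1, Fasl and Klrd1. Fga led the hepatocyte list, Slc17a7 and Syn1 the neuronal list, and Vwf, Kdr and Cldn5 the stromal list. In these bulk lists, other cell types in the culture and T cells that hold these regions open cannot be told apart.

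Upstream regions occurred mostly at genes whose promoters were also open. Of the 3463 genes with an upstream region, 2887 (83.4%) had an open promoter, beside 65.9% of all coding genes and 61.3% of those with eligible upstream sequence. The strongest upstream region was below the promoter in both replicates at 1998 of the 2887 genes (69.2%) and above it in both at 710 (24.6%), and the replicates differed in direction at 179. On the log2 scale the median ratio of upstream to promoter signal was −0.55 in replicate 1 and −0.55 in replicate 2. The 691 regions at genes without an open promoter had medians of 6.60 and 6.30 and lay at 4405 bp, and the 3503 at genes with one had 5.61 and 5.49 and lay at 5838 bp. Signal of a region and of its gene's promoter were barely related, with a Spearman correlation of 0.0846 in replicate 1 and 0.0910 in replicate 2 over those 3503 regions.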

How the data were processed

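ATAC-seq of 2 Th1 replicates was analysed from 1 deposited list of open regions per replicate, on mm10 per the labels; each list came from the alignments of that replicate alone. The aligner, like the caller, is not given in the sources used here. For each region, the authors' signal value is an enrichment (fold), and −log10 p and −log10 q are as deposited by the authors; the offset of the summit was also deposited. These are a caller's values per region, made before replicates were compared, and their background is not stated. Signal, −log10 q and summits were used to describe and filter regions.

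Of the regions, 98786 in replicate 1 and 91403 in replicate 2 lay on chromosomes 1 to 19, X and Y. Overlapping regions (1 bp or more) were joined, taking the strongest signal of each replicate, and placed against GENCODE M21 and the GRCm38.p6 sequence. Motifs were searched within 100 bp of the summit of replicate 1. Similarity to ribosomal RNA genes was computed with blastn 2.17.0. Python 3.11.15 with pandas 2.3.3, numpy 2.4.6 and pysam 0.24.0 was used, and the position rule was tested on simulated regions.

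Genes were named by rule: the 10 with most upstream regions, the 10 strongest and 5 widest regions, every Th1, cytokine and chemokine receptor gene with a region, up to 3 of each of the other 21 of 24 lists, regions nearest the limits and those with the largest ratio between replicates. Some genes that the rule selects are not reported here. The members, lists and motifs were chosen with earlier results of these data known. Mx2 and Clec7a were not matched to a coding gene. No test over regions was run, because regions are not replicates.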

Additional observations from a re-analysis of the deposited data

How the results depend on the processing

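The number of upstream regions (3882 to 5016 over 8 alternatives, beside 4194) and of genes with one (3256 to 3945, beside 3463) stayed within 1.5 times. Values below moved by more than the spread between replicates. At 50% reciprocal overlap the median signal was 5.89 in replicate 1 and 5.77 in replicate 2 and the median distance 5595 bp. At a −log10 q of at least 5 the medians were 6.08 and 5.94, and 82.6% of the genes had an open promoter. Holding only the centre to 1 kb from a start gave a median distance of 5524 bp. Each list alone (without replicate 1 or without replicate 2) gave a median width of 502 to 536 bp, 42.1 to 46.2 regions per Mb and medians of 5.15 in replicate 1 and 5.31 in replicate 2. The share of genes with an open promoter was 83.4% without replicate 1, within the spread, and 84.5% without replicate 2. These lists hold unjoined regions and the weak ones found once. The other 44 values of these results were counts within 1.5 times or values that moved by less than that spread. The centre rule for density and signal was added after seeing the data. Of the values for single motifs and for the 10 genes with most regions, 167 stayed and 63 moved. Windows of 50 bp on each side of the summit lowered the AP-1 share to 20.1% from 27.9%. Gpm6b had 2 to 4 regions, Klrc1 2 or 3 and Sash3 3 or 4. Density under other overlap and annotation rules was not run. No paired analysis was possible because there is 1 group. Limits are the unknown depth, the unstated background of the enrichment and the assignment of a region to the nearest start.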

Other observations

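Genes with more upstream regions had weaker promoters. Among genes with an open promoter, the median promoter signal was 11.7 in replicate 1 and 11.4 in replicate 2 at the 11565 genes without an upstream region. Of these, 7134 have sequence that could hold one, and their medians were 11.6 and 11.3. It was 10.1 and 9.86 at the 2333 genes with 1, 9.13 and 8.86 at the 496 with 2, and 7.74 and 7.53 at the 54 with 3. The order was the same in both replicates. It was 5.36 and 5.15 at the 4 genes with 4 regions, among them Cd2 and Sash3.

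The gene on the other side of an upstream region was most often protein-coding (60.2%), then a pseudogene (17.8%) or a long noncoding RNA gene (13.8%). At 40.9% of the regions the neighbour was transcribed away from the shared interval, head to head with the assigned gene. Those regions had medians of 5.82 and 5.68, and the others had 5.68 and 5.62. The 98 regions whose neighbour was an snRNA gene had 6.49 and 6.17, and the 57 with a miRNA gene had 6.52 and 6.41. With a snoRNA gene as neighbour (n = 45) the medians were 6.26 and 5.31, and with a miscellaneous RNA gene (n = 24) 4.91 and 4.99. Chromosome 11 had 392 upstream regions, or 23.9 per 100 coding genes, and the X chromosome 77, or 8.12 per 100. The highest rate was on chromosome 15, with 25.1 per 100. Of the shared regions, upstream regions made up 6.42% on chromosome 11 and 4.32% on the X chromosome, beside 4.97% over all chromosomes.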
